A study of Mus musculus with 4 samples.

Results

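The set described here is made up of 35 mouse genes of the connective-tissue matrix: 14 collagen chains, 6 adhesive and elastic fibre glycoproteins, 6 proteoglycans, 4 further matrix-associated proteins (Postn, Sparc, Tnc and Mgp) and 5 genes of matrix breakdown. They were taken by gene name from the non-control probes of the arrays, where all 35 were present with 50 of 55681 probes. Of the 35 genes, 34 passed the filter on dim probes, among 25296 genes tested. Tnc, the gene of tenascin-C, was not well above background on any array by either of its probes and is given no difference.

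Kidney RNA was measured on 4 single-colour arrays, 2 from control mice and 2 from mice with experimental membranous nephropathy (MN), in which immune complexes collect under the podocytes of the glomerulus. All animals were female BALB/C, aged 6 weeks when the protocol began, and every one of them had been immunized with 0.2 mg of cationic bovine serum albumin in complete Freund's adjuvant. From 2 weeks later, MN mice received 13 mg/kg of the same protein by vein, 3 times a week for 6 weeks, and control mice received vehicle, which the labels call saline in one place and PBS in another. The groups therefore share the immunization and the adjuvant and differ in the repeated intravenous antigen. The labels do not say whether each array holds RNA of a separate animal, so the p-values below measure only the spread between these samples, which may be technical. Whole kidney was used, so more cells of a type and more RNA per cell cannot be told apart.

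The interstitial matrix is a scaffold of fibrillar collagens, which are triple helices spun from chains with glycine at regular intervals of 3 residues. Small leucine-rich proteoglycans such as decorin and lumican sit on the fibrils and set their width, fibronectin and the fibulins join cells to the fibres, and fibrillin and elastin form the elastic network. Fibroblasts, pericytes and mesangial cells are the usual sources in kidney, and matrix metalloproteinases (MMPs) with their tissue inhibitors (TIMPs) control its turnover.

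Array quality bears on every value. Spots well above background made up 63.1% to 65.9% of non-control spots on 3 arrays and 79.5% on control array 2, and no spot was saturated. Both arrays numbered 1 were on slide 1 and both numbered 2 on slide 2, so differences within each slide are given as well. Values are log2 levels, the log2 of the processed signal minus that of the array's 75th percentile, and a difference is the MN mean minus the control mean. Over all genes tested the median difference was -0.05. With 2 arrays a group, precision is limited throughout.

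Most of these matrix genes had slightly higher signals in MN, and none passed the test. In limma's fit over all genes 0 of the 34 had an adjusted p under 0.05, the smallest being 0.434 for Lum, against 5 higher (0.0198%) and 0 lower (0%) among all genes. At an unadjusted p under 0.05, 7 members were higher and 1 was lower, or 20.6% and 2.94% of members, where the shares over all genes were 3.54% and 3.49%. The median difference of the members was 0.27. Of the 34, 26 had a difference above 0 (76.5%; 38.6% of all genes), and for 24 the MN array exceeded its slide's control array on each slide (70.6%; 23.2% of all genes), while 7 had the opposite sign on each (40.1% of all genes). On slide 1 the median was 0.26 and on slide 2 it was 0.28.

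Both MN arrays lay above both control arrays for 21 members (61.8%), where the share over all genes was 13.2%, and below them for 3 members (8.82%; 19.9% of all genes). Taking only genes well above background on all 4 arrays gave the same 21 and 3 of 33 members beside 13.7% and 18.2% of 23274 genes. The 7 members that were above by at least 0.5 were Sparc, Lum, Col6a1, Fbln2, Dcn, Timp1 and Mmp2, and the 1 below by that much was Col8a1. Over all genes 3.75% and 5.17% met these conditions. With the slide as a block, the unadjusted count became 15 higher and 2 lower (6.29% and 9.05% of all genes), and the smallest adjusted p of a member was 0.173. That member was Postn, which entered the test through the MN arrays, where it was higher. It is counted among the 15 and among the members above 0. Leaving out 1 array at a time gave medians of 0.21 to 0.33, the lowest without MN array 1 and the highest without MN array 2.

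**Figure D1:**
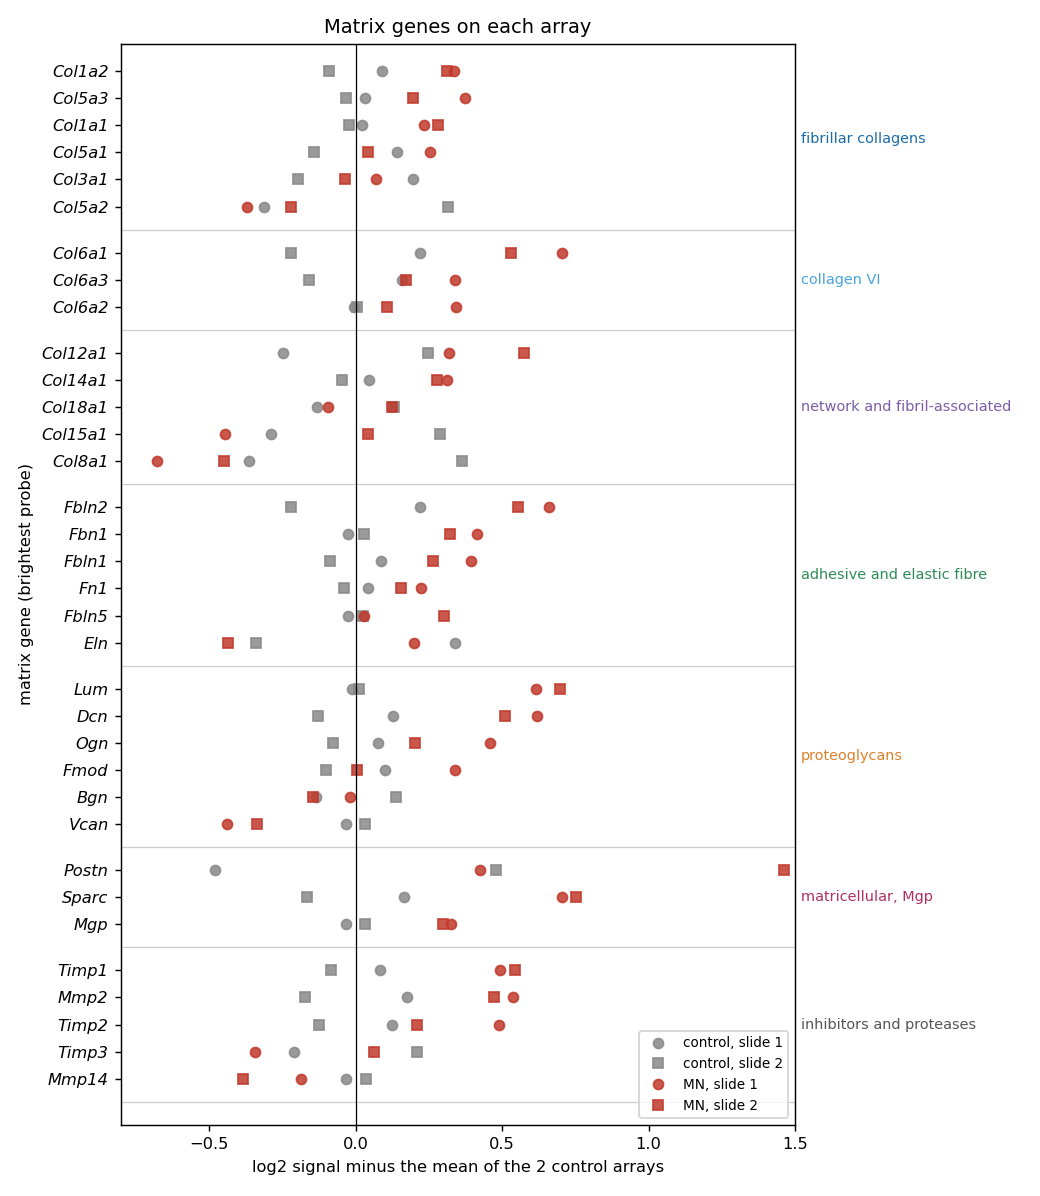
Each row is 1 of the 34 tested matrix genes, grouped by role, and each point is 1 array (grey for control, red for MN, circles for slide 1 and squares for slide 2). The horizontal axis is the log2 signal minus the mean of the 2 control arrays. For 21 genes both red points lie to the right of both grey points, and for 3 genes (Col8a1, Vcan and Mmp14) they lie to the left.

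**Figure D2:**
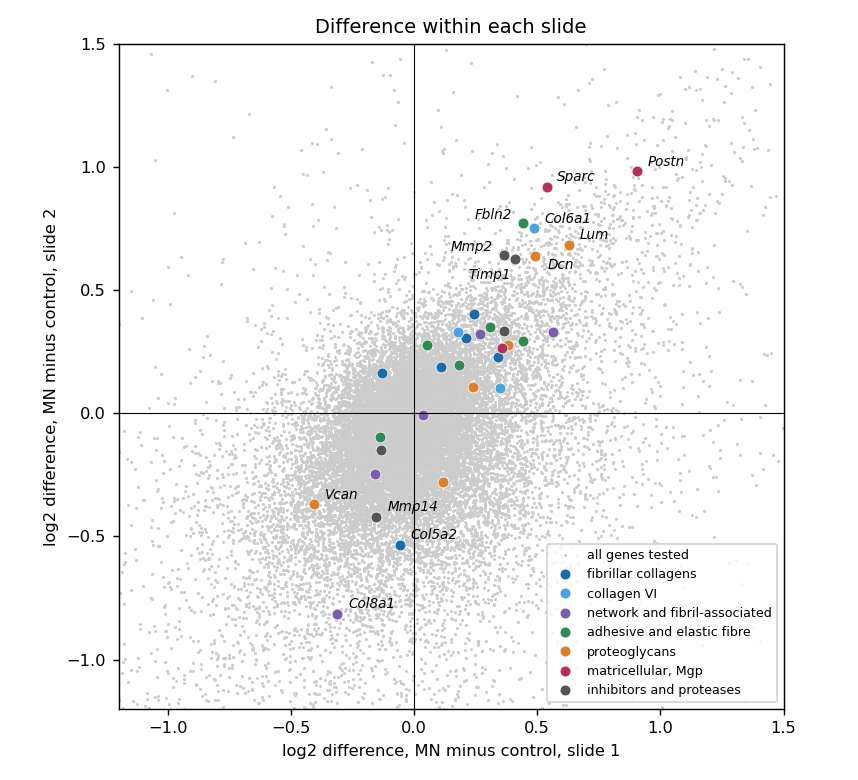
The log2 difference between MN and control is plotted on slide 1 (horizontal) against slide 2 (vertical), grey for all 25296 genes tested and coloured by role for the matrix genes. Of the 34 matrix genes 24 are at the upper right, above 0 on both axes, with Postn, Sparc and Lum farthest out, and 7 are at the lower left; genes beyond the axis limits are not drawn.

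Among the fibrillar collagens, the chains of type I collagen were a little higher in MN and type III differed by 0.02. Col1a1, the major chain of type I collagen, had log2 levels of 0.55 and 0.50 in control and 0.76 and 0.81 in MN, a difference of 0.26 ± 0.13 (SE; 95% interval -0.11 to 0.63). Its partner chain Col1a2 was at 3.55 and 3.37 in control and at 3.80 and 3.78 in MN, a difference of 0.32 ± 0.15. Neither pair of groups overlapped, and neither gene passed (limma adjusted p = 0.873 and 0.821). Col3a1, the single chain of type III collagen, was at 1.82 and 1.42 in control and at 1.69 and 1.58 in MN. The MN values lay between the control values, with a difference of 0.02 (95% interval -0.52 to 0.56) that was -0.13 on slide 1 and 0.16 on slide 2. Type V collagen nucleates the fibrils, and its chains went separate ways: Col5a3 at 0.28 (0.15 with normexp background correction) with MN above control, Col5a1 at 0.15 with overlapping groups, and Col5a2 at -0.30, also overlapping. The value of Col5a2 rested on control array 2 and was 0.02 without it.

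Collagen VI, which forms beaded microfilaments around cells, was higher in all 3 chains, each with MN above control on both arrays. Col6a1 was at 1.68 and 1.24 in control and at 2.16 and 1.99 in MN, a difference of 0.62 ± 0.21, or 1.54-fold (95% interval 0.03 to 1.21; limma adjusted p = 0.683), with 0.49 and 0.75 on the slides, and it was 0.40 without control array 2. Col6a3 differed by 0.26 and Col6a2 by 0.22. The second probe of Col6a2 was well above background on control array 2 alone.

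The network-forming and fibril-associated collagens showed no common direction, with a median of 0.01. Col14a1 and Col12a1, which coat fibrils, differed by 0.29 and 0.45 with MN above control, the latter dropping to 0.14 with normexp. Col8a1, a short-chain collagen of vessel walls and basement membranes, was at -2.27 and -1.55 in control and at -2.59 and -2.36 in MN. Both MN arrays lay below both control arrays, but the control arrays were farther apart than the groups, and the difference of -0.56 ± 0.30 was -0.31 on slide 1 and -0.81 on slide 2 (95% interval -1.40 to 0.27). Without control array 2 it was -0.20. The basement-membrane proteoglycan collagens Col15a1 (-0.20) and Col18a1 (0.01) had overlapping groups, and their probes gave values on both sides of 0.

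The probes that lie inside a collagen helix carry its signature in their sequence, and so are shown here as deposited, 5′ to 3′, with each in-frame GGN codon, which encodes glycine, in capitals. Among the 50 probes, these were the 2 with 6 or more GGN codons in a single frame. That of Col14a1 lies on mm9 at chr15:55347733-55347792 and holds 7, and that of Col15a1 at chr4:47283786-47283845 and holds 6.
Col14a1: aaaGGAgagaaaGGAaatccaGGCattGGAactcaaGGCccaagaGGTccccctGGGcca
Col15a1: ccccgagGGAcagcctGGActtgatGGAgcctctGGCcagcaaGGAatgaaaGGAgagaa
The Col14a1 helix probe gave a difference of 0.22 beside 0.29 for the gene's brighter probe. For Col15a1 it was the helix probe that gave -0.20, while a probe farther along the transcript gave 0.14 with MN above control.

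The glycoproteins of the elastic fibre and of cell adhesion were higher in MN for 5 of 6 genes, all 5 without overlap of the groups. Fbln2, a fibulin that bridges fibronectin and basement membrane, was at -0.82 and -1.26 in control and at -0.38 and -0.49 in MN. The difference of 0.61 ± 0.21, or 1.52-fold (95% interval 0.03 to 1.18; limma adjusted p = 0.678), was 0.44 on slide 1 and 0.77 on slide 2, and 0.39 without control array 2. Fbn1, the fibrillin of the microfibrils, differed by 0.37 ± 0.14 and Fbln1 by 0.33 ± 0.15. Fn1, which encodes fibronectin, was at 3.14 and 3.06 in control and at 3.32 and 3.25 in MN. Its groups did not overlap, but the difference was small, 0.19 ± 0.14 (95% interval -0.19 to 0.57). Fbln5, needed for elastic fibre assembly, was at 0.17. Eln, the elastin gene itself, was at -0.12 with overlapping groups, and its spread followed the slides: -1.94 in control and -2.08 in MN on slide 1, and -2.62 and -2.72 on slide 2.

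Among the proteoglycans, lumican and decorin were higher and versican was lower. Lum was at -1.39 and -1.37 in control and at -0.76 and -0.68 in MN. The replicate arrays of each group lay within 0.1 of each other, and the difference of 0.66 ± 0.13 (1.58-fold; 95% interval 0.28 to 1.03) had the smallest unadjusted p of any member, 0.00813. Dcn was at 3.89 and 3.63 in control and at 4.38 and 4.27 in MN, a difference of 0.56 ± 0.16 (1.48-fold; 95% interval 0.11 to 1.02; limma adjusted p = 0.591). Ogn, the small proteoglycan osteoglycin, differed by 0.33 without overlap. Fmod, for fibromodulin, was at 0.17 and Bgn, for biglycan, at -0.08, with overlapping groups in both. Bgn was 0.12 on slide 1 and -0.28 on slide 2. Vcan, the large proteoglycan versican, was at -0.78 and -0.71 in control and at -1.18 and -1.08 in MN, below control on both slides, with a difference of -0.39 ± 0.14 (limma adjusted p = 0.706). That value comes from 1 of its 3 probes, as the others were not well above background on any array.

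Several of these genes lie side by side in the mouse genome. Dcn and Lum are neighbours on chromosome 10, with their probes at chr10:96980233-96980292 and chr10:97035210-97035269 (mm9), and were the proteoglycans of the set with the largest differences. Kera and Epyc, next in line, did not pass the filter on dim probes. Ogn sits beside Omd and Aspn, further members of the same proteoglycan family, which were higher by 0.80 and 1.06 (0.60 and 0.31 with normexp), and 1 place on, Ecm2 was at 0.01. Col6a1 and Col6a2 are neighbours, both higher, whereas Col3a1 and Col5a2, also neighbours, were at 0.02 and -0.30. These are descriptions of named pairs, and neighbouring genes in general were not compared.

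Of the matricellular genes, which tune how cells meet the matrix, Sparc had the clearest values. Sparc encodes osteonectin, a collagen-binding protein, and was at 5.96 and 5.63 in control and at 6.50 and 6.55 in MN. The groups did not overlap and the difference was 0.73 ± 0.18, or 1.66-fold (95% interval 0.24 to 1.22; limma adjusted p = 0.520), with 0.54 and 0.92 on the slides. Postn, which encodes periostin, differed by more, 0.94 ± 0.52, but its probe was dim and was not well above background on control array 1. It was at -5.10 and -4.14 in control and at -4.19 and -3.16 in MN, so the groups overlapped across slides. Within slides MN was higher by 0.90 and 0.98. Postn entered the test through the MN arrays, where it was higher, so its values are given as description only. That holds also for its limma adjusted p with the slide as a block, 0.173, the smallest of the members. The difference was 0.39 with normexp and ran from 0.42 to 1.46 as single arrays were left out. Mgp, an inhibitor of calcification made by vessel walls, was at 4.85 and 4.91 in control and at 5.21 and 5.18 in MN, a difference of 0.31 ± 0.13 with the groups apart.

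Among the genes of matrix breakdown, an inhibitor and a gelatinase both had higher values in MN. Timp1, a secreted inhibitor of most MMPs, was at -2.74 and -2.90 in control and at -2.33 and -2.27 in MN, a difference of 0.52 ± 0.14, or 1.43-fold (95% interval 0.12 to 0.92; limma adjusted p = 0.575). Mmp2, which digests denatured collagen and collagen IV, was at -1.77 and -2.12 in control and at -1.41 and -1.47 in MN, a difference of 0.50 ± 0.18 (limma adjusted p = 0.711) that was 0.33 without control array 2. Neither pair of groups overlapped, and normexp gave 0.33 for both genes. Timp2, which takes part in activating the MMP2 protein at the cell surface, differed by 0.35 from one probe and 0.37 from the other. Mmp14, the membrane protease of the same activating complex, was on the other side, at -2.97 and -2.90 in control and at -3.12 and -3.32 in MN (-0.29 ± 0.15; limma adjusted p = 0.880). Timp3, the matrix-bound inhibitor, was at -0.14 with overlapping groups, and its levels on slide 2 exceeded those on slide 1 in both groups.

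Where a gene had several probes, they mostly gave the same sign. Of the 35 genes, 11 had more than 1 probe, and 42 of the 50 probes were well above background on all 4 arrays. The 3 Fbln1 probes ran from 0.14 to 0.58, and the lowest of them had overlapping groups. The 3 Sparc probes gave 0.82, 0.73 and 0.21. The brightest was the one of 0.73, and the groups overlapped on the others, where slide 2 exceeded slide 1 in both groups. Col15a1 and Col18a1 were the genes whose probes, among those well above background on all 4 arrays, gave both signs.

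**Figure D3:**
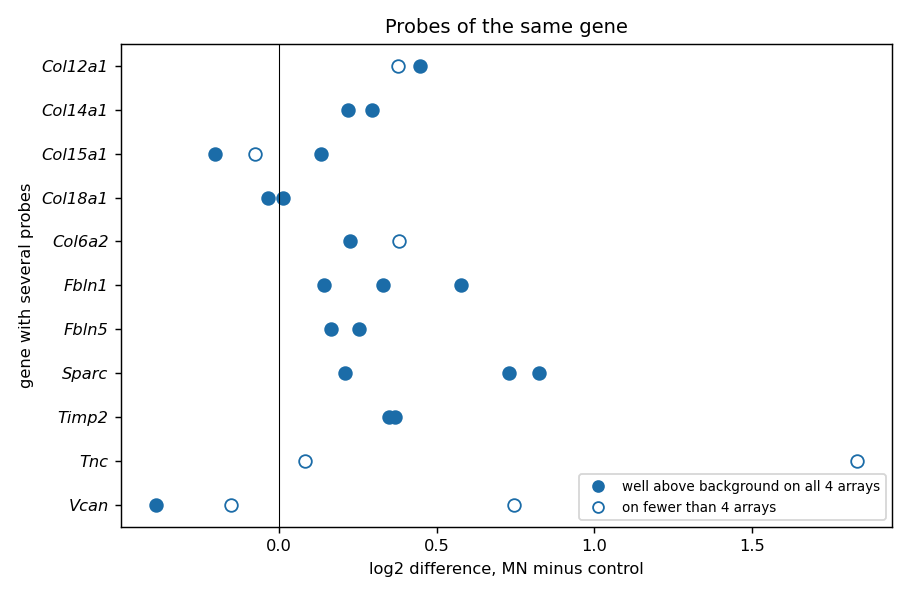
The 11 matrix genes with more than 1 probe are in rows, and each circle is the log2 difference between MN and control from 1 probe, filled where the probe was well above background on all 4 arrays. The filled Sparc circles run from 0.21 to 0.82, and the open circles of Tnc and Vcan are signals near background with no interpretable size.

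Promoter sequences are shown for the members that differed by at least 0.5 without overlap of the groups, where the table of RefSeq sequences (GRCm38.p6) held one. It held 25 of the 35 genes, and no entry for Dcn, Lum or Mmp2. Each window runs from 250 bases before to 50 after the transcript start, 5′ to 3′ on the gene's strand. Capitals mark matches on either strand to 5 short motifs. TATAAA is the TATA box, which places the start of many tissue-specific genes. A further core element is CCAAT, bound by the factor NF-Y. The GC box, bound by SP1, was searched as GGGCGG. The AP-1 site was searched as TGANTCA. The last, CAGACA, holds the core that SMAD proteins bind downstream of TGF-beta. The windows are at chr11:55420031-55420330 (Sparc, minus strand), chr10:76725995-76726294 (Col6a1, minus), chr6:91212514-91212813 (Fbln2, plus), chrX:20869916-20870215 (Timp1, plus) and chr16:57754688-57754987 (Col8a1, minus).
Sparc: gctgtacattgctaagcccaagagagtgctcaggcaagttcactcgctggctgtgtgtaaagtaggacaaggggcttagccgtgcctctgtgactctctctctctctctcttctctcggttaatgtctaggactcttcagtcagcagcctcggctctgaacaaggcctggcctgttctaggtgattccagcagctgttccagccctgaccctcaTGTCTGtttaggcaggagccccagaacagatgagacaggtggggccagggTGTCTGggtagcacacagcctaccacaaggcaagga
Col6a1: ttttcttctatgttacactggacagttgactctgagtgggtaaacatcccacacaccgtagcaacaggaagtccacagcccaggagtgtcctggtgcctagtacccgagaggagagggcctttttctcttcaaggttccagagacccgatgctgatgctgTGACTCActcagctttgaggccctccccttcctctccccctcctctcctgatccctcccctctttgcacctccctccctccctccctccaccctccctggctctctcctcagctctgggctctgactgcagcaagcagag
Fbln2: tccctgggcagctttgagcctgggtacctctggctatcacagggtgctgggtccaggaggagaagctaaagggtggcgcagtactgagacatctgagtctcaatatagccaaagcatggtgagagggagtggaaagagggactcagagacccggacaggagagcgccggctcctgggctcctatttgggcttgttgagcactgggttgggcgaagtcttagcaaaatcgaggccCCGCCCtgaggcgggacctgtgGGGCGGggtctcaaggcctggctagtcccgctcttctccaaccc
Timp1: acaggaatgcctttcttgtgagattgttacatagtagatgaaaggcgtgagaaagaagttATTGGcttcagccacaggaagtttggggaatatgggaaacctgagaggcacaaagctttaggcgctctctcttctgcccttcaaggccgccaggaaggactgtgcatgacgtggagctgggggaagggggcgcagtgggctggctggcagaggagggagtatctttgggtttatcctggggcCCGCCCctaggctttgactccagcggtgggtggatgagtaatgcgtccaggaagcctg
Col8a1: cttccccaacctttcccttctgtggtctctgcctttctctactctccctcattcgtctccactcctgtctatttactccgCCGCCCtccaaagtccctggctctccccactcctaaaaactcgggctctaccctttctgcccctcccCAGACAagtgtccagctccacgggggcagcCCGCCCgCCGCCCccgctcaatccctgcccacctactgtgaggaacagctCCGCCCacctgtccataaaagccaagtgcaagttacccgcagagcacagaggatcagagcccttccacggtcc
None of these 5 windows held TATAAA. Sparc held CAGACA in reverse at bases -36 and 15 from the start. Col6a1 held the AP-1 motif, starting at base -90, and was the only 1 of the 25 genes to do so, while 7.79% of 32544 promoter windows of all genes held it. Fbln2 and Timp1 held the GC box within 20 bases of the start, and Timp1 also held CCAAT in reverse. Col8a1, the gene with lower values in MN, held 4 GC boxes and CAGACA. Of the 25 genes, 17 held GGGCGG (68%, beside 35.9% of all windows), 10 CCAAT (40% and 37.4%), 9 CAGACA (36% and 20.9%) and 4 TATAAA (16% and 13.6%). A gene with several windows was counted once if any held the motif, and 6 of the 25 had more than 1. A match says only that these letters occur there.

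Further groups of genes that make, receive or cut matrix had medians from -0.16 to 0.15, beside 0.27 for the set. None of the 27 tested genes of collagen processing passed, with a median of 0.05, 8 with MN above control on both arrays and 3 below (13.2% and 19.9% of all genes). Adamts14 and Adamts2, which trim the ends of procollagen, differed by 0.86 ± 0.16 and 0.41, and P4ha2, a prolyl hydroxylase that stabilizes the helix, by 0.37. Adamts3, a further enzyme of that kind, was well above background in control only, and MN was at least 1.28-fold lower. It entered the test, and the 3 below, through the control arrays, so only this bound is given. Pcolce2, an enhancer of procollagen trimming, was at -0.31. Of the 24 collagens outside the set 11 could be tested, with a median of 0.04 that was -0.08 with normexp, 0 passing, 3 above and 2 below. Col26a1 and Col27a1 were at 0.39 and 0.38. Col24a1 (0.50) and Col19a1 (-0.62) were dim and changed to 0.03 and -0.32 with normexp.

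Other matrix glycoproteins had a median of 0.15 over 36 genes, with 17 above, 2 below and 0 passing. Over all genes 13.2% were above and 19.9% below. Spon2 is counted among the 17, and it entered the test through the MN arrays, where it was higher. Mfap5, a microfibril protein, was at -3.83 and -3.67 in control and at -1.92 and -2.03 in MN. Its difference of 1.77 ± 0.15 (1.08 with normexp; limma adjusted p = 0.157) exceeded that of each tested member of the set. Smoc2, a relative of Sparc, differed by 1.21 ± 0.15 and Tnn, a tenascin, by 1.18 ± 0.13, with both MN arrays above both control arrays. Smoc1, the paralogue of Smoc2, went the other way: it was well above background in control only, and MN was at least 1.18-fold lower. As it entered the test, and the 2 below, through the control arrays, only this bound is given. Proteoglycans outside the set had a median of -0.16 over 17 genes, 3 above, 6 below and 0 passing. Hapln1 was well above background in control only, and MN was at least 1.21-fold lower. It entered the test, the median and the 6 below through the control arrays, so only this bound is given. Esm1, an endothelial proteoglycan, was at 3.49 and 3.34 in control and at 2.41 and 2.18 in MN, a difference of -1.12 ± 0.16, while Aspn and Omd were higher, as given above. Prg4, which encodes lubricin, was at -1.32 (-0.52 with normexp) from a probe well above background on 2 of the 4 arrays. It therefore entered the test through the arrays of a single group, and its value is description only.

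Proteases outside the set showed both directions, with a median of -0.08 over 28 genes, 7 above, 9 below and 0 passing. For these and the lists below, the shares over all genes were 13.2% above and 19.9% below. Fap, a collagen-cutting protease of activated fibroblasts, differed by 1.25 ± 0.17 (0.51 with normexp) and Mmp23 by 0.76. Adamts4, an aggrecan-cutting protease, and Adamts12 were well above background in control only, and MN was at least 3.29-fold and 1.71-fold lower. Both entered the test, and the 9 below, through the control arrays, so only these bounds are given. Mmp12, the macrophage elastase, was at -0.59 (-0.24 with normexp) and Adamts16 at -0.60, with 0.41 from another of its probes. Of 8 tested genes of protease inhibition, including the urokinase receptor, 3 had MN above control and 5 had overlapping groups, with a median of 0.13 that was 0.0092 with normexp. Plaur, Cstb and Reck, at 0.01, 0.00 and 0.03, were below 0 with normexp, and 1 of the 8 passed over all genes. That gene was Slpi, an inhibitor of neutrophil proteases, which rose by 4.41 ± 0.15 (limma adjusted p = 0.046). It did not pass with no filter on dim probes, with a stricter one (all 4 arrays well above background), with the slide as a block, or without any 1 of the 4 arrays. Serpinf1 was at 0.72, with 0.04 from its other probe. Matrix receptors had a median of 0.04 over 26 genes, 8 above, 3 below and 0 passing, with Itgb3 at 0.52, Hmmr at 0.50, Itga9 at 0.39 and Itgb6 at -0.47.

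**Figure D4:**
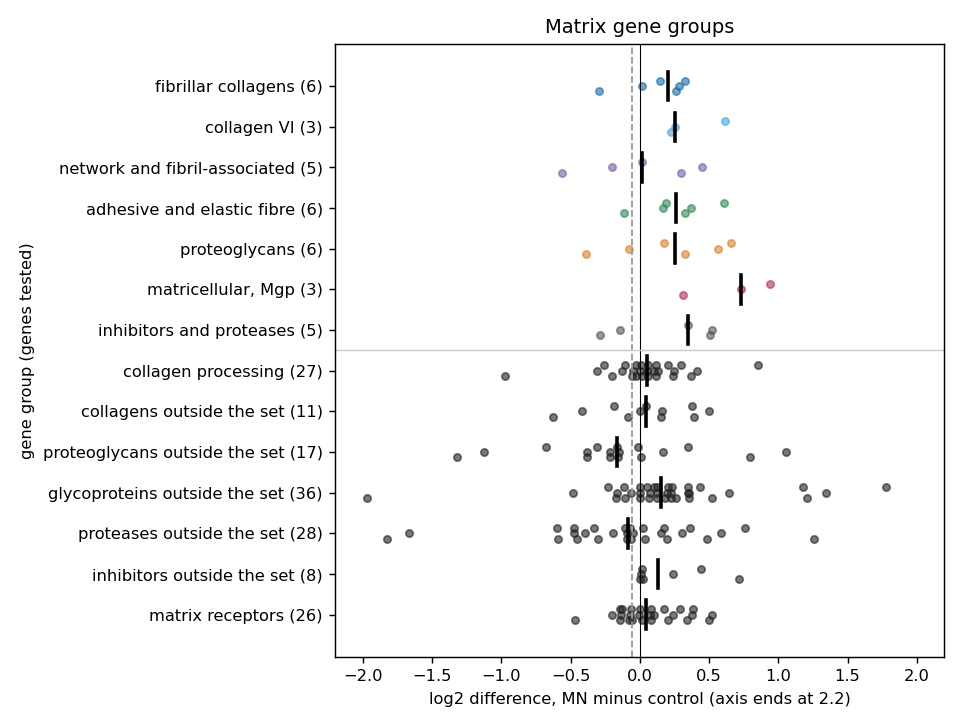
Each point is the log2 difference between MN and control of 1 tested gene, black bars are group medians, and the dashed line is the median of all genes tested (-0.05). The groups above the grey line are roles within the set and those below it are further matrix genes; Slpi, at 4.41, is beyond the axis. Most roles within the set have medians of 0.20 or more, and the further groups lie between -0.16 and 0.15.

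Markers of cell types that make matrix, or that may come with the tissue, also had different values in the 2 groups, and their part in the values above was not tested. Of 18 fibroblast and myofibroblast markers 17 were tested, 14 were above 0, 12 had MN above control and 0 passed, with a median of 0.40. Over all genes 38.6% were above 0, 13.2% had MN above control and 19.9% below. Gli1 is counted among the 12, and it entered the test through the MN arrays, where it was higher. The summed signal of the 18, in units of the array's 75th percentile, was 113.5 to 117.1 in control and 125.7 to 127.5 in MN. The brightest marker in that sum, Ly6a, had a mean of 6.45 in each group and differed by -0.003. Of the 18, 1 was too dim to be tested (Dpt). Vim (1.29), Fap, Pi16 (0.87) and Tcf21 (0.74) had the largest differences, whereas Pdgfrb (0.10), Thy1 (0.04) and Scara5 (-0.06), which are also fibroblast genes, had overlapping groups. Meox1 (-0.19) had both MN arrays below both control arrays. Smooth muscle, pericyte and mesangial markers had a median of 0.09 over 12 tested genes and a lower summed signal in MN (58.6 and 62.9 beside 87.6 and 98.8). The lower sum came from Mcam alone (-1.03, or -0.12 from its other probe). Without it, a choice made after its values were seen, the sums were 24.9 and 29.7 in control and 27.3 and 29.6 in MN. Of the 12 tested genes, Mcam included, 9 had differences above 0.

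Podocyte markers had a median of 0.52 over 14 genes, 10 of them above and 2 below (13.2% and 19.9% of all genes). Their sums were 60.2 and 65.2 in control and at least 99.7 in MN. Adipocyte markers had a median of 0.40 over 13 genes, with sums of 20.4 and 22.8 in control and 26.2 and 26.5 in MN. Adipoq, Retn and Cfd entered the test through the MN arrays, where they were high, so they are given as values only. The median above counts them, so the filter raised it and it does not describe the list as a whole. No control array had Adipoq or Retn well above background, and MN was at least 22.9-fold and 23.7-fold higher. Cfd was well above background on 3 of the 4 arrays, at 1.59 and 1.99 in MN. Ucp1 was not well above background on any array, and Plin4 (0.11), Pparg (0.02), Lep (-0.09) and Fabp4 (-0.10) had overlapping groups. Lipe (-0.26) and Cidea (-0.16) had both MN arrays below both control arrays. Among markers of the mesothelium, which lines the organ's surface, 7 of 10 were tested, with a median of 0.21 and 4 of them with MN above control. Those 4 include Wt1 (0.52), which is also counted among the podocyte markers. Msln was at 2.42 (1.65 with normexp), whereas Krt19 (0.11), Gpm6a (-0.08) and Upk1b (-0.35) had overlapping groups. The list had sums of 13.1 and 14.3 in control and 14.5 and 15.6 in MN, and Lrrn4 and Bnc1 were not well above background on any array. Endothelial markers had a median of 0.01 over 14 genes and sums of 72.8 to 74.5 over the 4 arrays. Macrophage markers had a median of 0.24 over 13 genes, with sums of 32.6 and 32.9 in control and 34.0 and 35.6 in MN. Of the 13, 6 had MN above control and 1, Csf1r (-0.22), had MN below it. Cd14 (-0.01), Fcgr1 (-0.06) and Cd68 (-0.12) were among those with overlapping groups, and Cd163 was not well above background on any array.

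Markers of blood and liver had higher summed signals in MN. Erythroid markers had a median of 0.39 over 8 genes and sums of 185.4 and 222.7 in control and 252.1 and 297.1 in MN, with Rhag not well above background on any array. Liver markers had a median of 0.42 over 9 genes and sums of 30.9 and 33.1 in control and 45.0 and 50.1 in MN. Ahsg entered the test through the MN arrays, where it was high. The median counts it, so the filter raised that median. Apoa1 was not well above background on any array. The 14 proximal tubule markers, which define kidney cortex, were all tested, with sums of 1292 to 2253 over the 4 arrays.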

How the data were processed

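Total RNA was labelled with Cy3 and hybridized to 1 array per sample, per the labels' protocols. The deposited scanner files hold spot intensity, which the authors took from Agilent Feature Extraction 10.5.1.1 with background subtracted and trends removed, per the file headers. Arrays were not scaled to each other there. The deposited value table holds log2 values of unstated making. Set against the scanner values it matched signals scaled as below minus the control mean, with medians between -0.04 and 0.03 in its 4 columns, and with replicates 1 and 2 exchanged in both groups (which order is right is unknown), and it served as an alternative only.

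Non-uniform spots (7 or fewer per array) and control spots were left out, spots of a probe averaged, and log2 signals set against each array's 75th percentile. A probe was tested if well above background on both arrays of a group, and a gene took its probe with the highest mean over the 4 arrays. Genes were named by accession in RefSeq tables (28026 probes), symbol (3418), synonym (295) or otherwise the file (23942), using the annotation version of slide 2. Coordinates of probes are those of mm9, which the file headers name. The test was limma 3.58.1 (R 4.3.3) (two-sided, Benjamini-Hochberg, residual df 2, prior df 1.99) without a block; deviations of same-numbered arrays, which share a slide, correlated at 0.626, and the block has 1 residual df. Scripts were tested on simulated data. The members and lists were chosen with earlier results of these data known. For genes not well above background in a group, the fold bound sets the other group's mean against the higher, per array, of the gene's signal and the lowest signal well above background. Each array's values are given for members apart by 0.5 or more and, whatever their values, for Col1a1, Col1a2, Col3a1, Fn1, Dcn, Timp1, Mmp2 and Mmp14, and from each other list up to 4 non-overlapping genes with the largest differences are named, among those well above background on all 4 arrays; some such genes are not reported here, and other genes, including Vcan, Postn, Mgp, Eln and genes measured in 1 group only (such as Smoc1 and Adamts4), were named after their values were seen. Alternatives were normexp (offset 50), quantile or median scaling, the deposited table, other filters, probe rules and variance models, a threshold of 0.1, the block, and each array left out.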

Additional observations from a re-analysis of the deposited data

How the results depend on the processing

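No member of the set passed under any of the 15 alternatives, and the count of members above 0 stayed between 25 and 29. Over all genes, 5 were higher at the threshold; the count was 15 with normexp, 17 with quantile normalization, 9 with median scaling, 16 with a variance trend, 22 at an adjusted p of 0.1, and 0 with no filter, with the stricter filter, with the replicate block (the slide) and without any 1 array. Slpi was lost (0 called among the inhibitors) in those same cases with a count of 0. The replicate block changed no member's call. The median of the matricellular genes rests on 3 genes, Postn among them. It was 0.39 with normexp, 0.80 with quantile normalization and 0.84 with no filter. With the stricter filter, which leaves Postn out, it was 0.52. The mean of probes gave a median of 0.59 and the dimmest probe a median of 0.31. That of the inhibitors outside the set was 0.0092 with normexp, 0.23 with quantile normalization, 0.24 with no filter and 0.026 with the dimmest probe, and that of the proteases outside the set was -0.011 with quantile normalization. The cause of these shifts was not tested.

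Leaving out 1 array gave medians of 0.21 to 0.33 for the set, 0.10 to 0.40 for its proteoglycans, 0.42 to 0.75 for its matricellular genes, 0.098 to 0.29 for the inhibitors, -0.11 to 0.11 for matrix receptors and -0.036 to 0.26 for other collagens. The count of members with MN below control was then 5 to 8, where fewer arrays have to agree. Col18a1 changed sign with the mean of probes (-0.0096) and with the dimmest probe (-0.033). Leaving out an array reversed 7 members, and it also breaks the pairing of arrays by slide: Col18a1 (-0.12 to 0.15), Col3a1 (-0.18 to 0.21), Col15a1 (-0.49 to 0.086), Timp3 (-0.35 to 0.070), Eln (-0.46 to 0.22), Col5a2 (-0.61 to 0.018) and Bgn (-0.22 to 0.055). The other 27 tested members kept their sign throughout.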
